A study of Mus musculus with 4 samples.

Results

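Nuclear factor I proteins are the transcription factors encoded by Nfia, Nfib, Nfic and Nfix. Chromatin accessibility around these 4 genes was followed in im-scWAT cells, an immortalised mouse culture from subcutaneous white adipose tissue, by ATAC-seq, in which the Tn5 transposase inserts sequencing adapters into open DNA and regions dense in insertions are called as peaks. A peak was taken when its summit lay in the body of one of the genes or within 50 kb of any of their annotated transcription start sites, with no regard to its height or to the library it came from. Peaks of the 4 libraries that shared at least 1 bp were joined into a site. This gave 138 sites made of 374 peaks, out of 100608 sites and 239709 peaks in the genome: 49 sites at Nfia, 20 at Nfib, 28 at Nfic and 41 at Nfix.

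The stromal-vascular cells behind the cultures came from 5-week-old mice with normal Jmjd1a (Jmjd1a +/+, WT) or from mice homozygous for a point mutation that removes the histone H3 lysine 9 demethylase activity of JMJD1A (Jmjd1a HY/HY, HY). Both cultures carry SV40 large T antigen, delivered by a retrovirus to immortalise them, and were selected with puromycin. Cells were taken before differentiation (day 0, D0) or on day 8 (D8), after 2 days with indomethacin, dexamethasone, isobutylmethylxanthine, rosiglitazone, insulin and T3 and 6 days with the last 3 of these, a protocol towards beige adipocytes. There was 1 library for each genotype and day, so no difference below has a replicate check, no test was made, and a genotype cannot be told apart from the culture that carries it. How many lines or clones stand behind each genotype is not given in the sources used here. The comparisons ask which regions of the 4 genes opened or closed over differentiation and whether WT and HY cells differed there.

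Nuclear factor I proteins share a DNA-binding domain at the amino terminus and bind as dimers to a palindrome made of TTGGC and GCCAA separated by any 5 bases, or more weakly to one arm of it. In adipose cells NFIA is known as a factor of the brown fat gene programme that acts with PPARG, the master regulator of fat cell differentiation, and NFIB has a role in adipogenesis. NFIC is best known from tooth and bone, and NFIX from the developing brain and muscle.

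A site is named here by its gene and by the distance in kb of its strongest summit from the gene's main start, the one with the most protein-coding transcripts starting within 500 bp of it, with negative distances upstream. Its level is the summit pileup, the number of overlapping tags at the highest base. For comparisons between libraries the pileup was divided by the genome-wide background rate of its library, and this scaled pileup is a multiple of that rate. Where values or ratios come in pairs, WT stands first and HY second. A library with no peak at a site can still have tags there, since the lowest pileup that was called was 4 in HY D8 and 5 in the other libraries. Intervals are 95% exact intervals and cover counting error only. A pileup adds up many cells, so a region open in more cells and a region more open in each cell cannot be told apart.

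The sequences below are examples of sites that were called on 1 day only. For each gene they give 201 bp around the summit of the strongest site that was called at D8 only in both genotypes, then of the strongest one called at D0 only in both, among sites that were nearest to a start of one of the 4 genes and free of annotated exons in that window. They were read from the mm9 reference, 5′ to 3′. Capitals mark matches to 7 motifs on either strand: TTGGCA (a nuclear factor I half-site, which can be part of a full palindrome), the full palindrome, TTGCNNAA (C/EBP), TGANTCA (AP-1), TCCC and GGGA separated by any 2 bases (EBF), and the PPARG:RXR and CTCF motifs. The first 4 sequences are those called at D8 only.
Nfia +146.5 kb, chr4:97590730-97590930, plus strand: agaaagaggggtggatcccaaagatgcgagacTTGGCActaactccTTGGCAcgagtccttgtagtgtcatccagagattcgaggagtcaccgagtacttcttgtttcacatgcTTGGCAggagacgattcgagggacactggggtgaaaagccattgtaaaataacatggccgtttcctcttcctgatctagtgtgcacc
Nfib +101.3 kb, chr4:82050317-82050517, plus strand: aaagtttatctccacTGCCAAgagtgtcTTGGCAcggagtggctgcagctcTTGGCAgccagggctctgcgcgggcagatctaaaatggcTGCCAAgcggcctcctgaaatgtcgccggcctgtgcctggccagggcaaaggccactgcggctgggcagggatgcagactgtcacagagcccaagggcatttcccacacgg
Nfic -3.1 kb, chr10:80892936-80893136, plus strand: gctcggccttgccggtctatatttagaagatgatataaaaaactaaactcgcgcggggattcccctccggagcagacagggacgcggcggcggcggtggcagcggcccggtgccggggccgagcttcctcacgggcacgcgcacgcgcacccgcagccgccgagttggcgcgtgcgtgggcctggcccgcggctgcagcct
Nfix +46.4 kb, chr8:87277532-87277732, plus strand: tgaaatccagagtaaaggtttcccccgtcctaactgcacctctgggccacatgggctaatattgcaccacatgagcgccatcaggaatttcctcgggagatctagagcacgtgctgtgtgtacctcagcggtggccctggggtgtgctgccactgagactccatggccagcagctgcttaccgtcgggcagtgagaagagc
The next 4 were called at D0 only.
Nfia +83.0 kb, chr4:97527205-97527405, plus strand: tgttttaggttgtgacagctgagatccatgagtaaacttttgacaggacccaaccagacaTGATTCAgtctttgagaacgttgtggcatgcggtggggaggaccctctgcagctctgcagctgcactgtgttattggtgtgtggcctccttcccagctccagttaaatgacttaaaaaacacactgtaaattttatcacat
Nfib -46.6 kb, chr4:82198130-82198330, plus strand: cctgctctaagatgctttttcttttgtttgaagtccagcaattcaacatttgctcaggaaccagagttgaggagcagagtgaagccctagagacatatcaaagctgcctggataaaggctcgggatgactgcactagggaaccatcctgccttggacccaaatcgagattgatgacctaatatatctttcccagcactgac
Nfic +25 kb, chr10:80864795-80864995, plus strand: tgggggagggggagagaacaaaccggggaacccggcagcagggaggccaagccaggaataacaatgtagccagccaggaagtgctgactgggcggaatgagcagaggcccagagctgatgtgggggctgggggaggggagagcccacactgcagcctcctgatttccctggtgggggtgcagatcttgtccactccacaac
Nfix +5.8 kb, chr8:87318172-87318372, plus strand: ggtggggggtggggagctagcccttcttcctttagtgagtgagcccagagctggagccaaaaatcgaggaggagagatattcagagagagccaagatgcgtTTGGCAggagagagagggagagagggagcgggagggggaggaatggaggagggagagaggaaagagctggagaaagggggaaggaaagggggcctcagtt
The D8-only windows of Nfia and Nfib held 3 and 4 half-sites. Of all 100608 sites, 110 (0.109%) held at least 3 and 8 (0.00795%) held at least 4. Of the 6031 sites of the genome called at D8 only in both genotypes, 24 (0.398%) held at least 3. The D8-only windows of Nfic and Nfix held no match to any of the 7 motifs. Among the D0-only windows, the one at Nfia held 1 AP-1 match, the one at Nfix held 1 half-site, and those at Nfib and Nfic held none.

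Nfia (ENSMUSG00000028565.11, chr4:97439425-97868605, plus strand, 429.2 kb) had the largest share of D8-only sites of the 4 genes. Its sites with a peak numbered 27 and 30 at D0 and 26 and 32 at D8. Of its 49 sites, 8 were called at D8 only in both genotypes, which is 16.3% (7.32 to 29.7) beside 5.99% of all sites in the genome. Another 6 were called at D0 only in both, or 12.2% (4.63 to 24.8) beside 24.6% of all sites. All 4 libraries had a peak at 13 sites, or 26.5% (14.9 to 41.1), beside 24.2% of all sites.

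The D8-only sites of Nfia were spread from -11.8 kb to +219.7 kb, with pileups from 7 to 25, and 7 of the 8 lay in introns. The highest was the intronic site at +37.1 kb (chr4:97481295-97481510), with pileups of 25 and 22 at D8 and no peak at D0. It was nearest to the start of E130114P18Rik, which lies at the same promoter as Nfia. The site at +146.5 kb printed above (chr4:97590642-97591055) had 13 and 17 at D8, and the one at +219.7 kb (chr4:97663601-97664126) had 13 and 16. The remaining D8-only sites, at -11.8, +122.9, +134.3, +184.4 and +196.6 kb, had pileups between 7 and 15.

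The 6 D0-only sites of Nfia were all intronic, from +67.4 kb to +411.5 kb. At +83.0 kb (chr4:97527150-97527583), whose sequence holds an AP-1 match, the pileup was 19 and 23 at D0. At +67.4 kb (chr4:97511565-97512218) it was 16 and 17, and at +411.5 kb (chr4:97855674-97855986), nearest to Tm2d1, it was 11 in both. The D0-only sites at +67.4, +73.2, +83.0 and +191.6 kb lay between D8-only sites.

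Among Nfia sites with a peak in all 4 libraries, the largest rise and the largest fall, singled out after their values were seen, were both intronic. At +326.7 kb (chr4:97770810-97771409) the pileup was 27 and 24 at D0 and 48 and 42 at D8. Scaled for depth it was 2.21-fold higher at D8 in WT (1.35 to 3.68) and 2.51-fold higher in HY (1.48 to 4.33). The local background of this site, in tags, rose as well, from 1.43 and 1.37 at D0 to 2.97 and 2.69 at D8, and the ratio of the deposited folds over that background was 1.07 and 1.1. The neighbouring site at +331.6 kb (chr4:97775796-97776039), also chosen after its values were seen, had no peak in WT and 11 in HY at D0, and 15 and 20 at D8. At +226.7 kb (chr4:97670834-97671366) the pileup went the other way, from 41 and 46 to 19 and 22, with ratios of 0.575 (0.315 to 1.01) and 0.685 (0.392 to 1.16) whose intervals include 1.

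Nfib (ENSMUSG00000008575.10, chr4:81936077-82351654, minus strand, 415.6 kb) is nearly as long as Nfia and held fewer sites per length, 4.3 per 100 kb of window against 10.2. Its sites with a peak numbered 10 and 15 at D0 and 9 and 10 at D8, and all 20 lay in introns. Peaks were called at D8 only in both genotypes at 2 sites (10%, 1.23 to 31.7), at D0 only in both at 3 (15%, 3.21 to 37.9) and in all 4 libraries at 5 (25%, 8.66 to 49.1). All these intervals include the genome-wide share. The D8-only sites were the one at +101.3 kb (chr4:82050287-82050528), with the 4 half-sites printed above and pileups of 12 and 17, and the one at -25.5 kb (chr4:82176951-82177280), with 11 and 11. The strongest D0-only site lay at -46.6 kb (chr4:82198134-82198590), with 15 and 26, and the others, at +69.7 and +119.2 kb, had 6 to 12.

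The sites at and just upstream of the main start of Nfib, inside an intron of a longer transcript, moved in both directions. At the start itself (chr4:82151613-82151845) the pileup was 9 and 18 at D0 and 17 and 16 at D8, a scaled ratio of 2.34 (0.989 to 5.97) and 1.27 (0.607 to 2.64), which became 1.16 and 0.858 on the deposited fold, so that the direction in HY turned. At -0.5 kb (chr4:82151974-82152535) there was no peak in WT and 19 in HY at D0, and 29 and 26 at D8, 1.96-fold higher in HY (1.04 to 3.75). At -7.5 kb (chr4:82158998-82159363) the pileups were 17 and 23 at D0 and 32 and 25 at D8, 2.34-fold higher in WT (1.26 to 4.49) and 1.56-fold in HY (0.848 to 2.87). Of these 3 sites the interval lay above 1 at -7.5 kb in WT and at -0.5 kb in HY. At -5.2 kb (chr4:82156479-82157404), between them, the pileup was 42 and 44 at D0, with no peak in WT and 18 in HY at D8, a ratio of 0.586 in HY (0.319 to 1.03).

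Nfic (ENSMUSG00000055053.10, chr10:80858931-80893750, minus strand) is the shortest of the 4 genes, 34.8 kb, and lies among other genes. Its window held 21.5 sites per 100 kb, and 14 of its 28 sites were nearest to the start of another coding gene. Peaks were called in all 4 libraries at 13 sites (46.4%, 27.5 to 66.1), a share whose interval lies above the 24.2% of the genome. Without sites nearest to another gene it was 7 of 14 (50%, 23 to 77), an interval that includes the genome's share. Of all 28 sites, 4 were called at D8 only in both genotypes (14.3%, 4.03 to 32.7) and also 4 at D0 only in both. This interval includes the shares of the genome, 5.99% and 24.6%. The highest site of the window, at +76.7 kb and nearest to Hmg20b, had pileups of 83 and 78 at D0 and 70 and 73 at D8, with ratios of 1.05 (0.751 to 1.46) and 1.34 (0.96 to 1.87). The highest D8-only site, at +68.3 kb (chr10:80821542-80821947), with 36 and 29, was nearest to F630110N24Rik.

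Within Nfic itself the site at -3.1 kb (chr10:80892866-80893161), downstream of an alternative start, was called at D8 only, with 21 and 17. It lies within 1 kb of the site at -2.6 kb, open in all 4 libraries, so its class rests on whether a separate peak was called. The intronic site at +25 kb (chr10:80864297-80865209) was called at D0 only, with 49 and 31. Its WT value is the highest of a D0-only site at the 4 genes, while in HY the site at Nfix +135.1 kb, with 38 and 45, was higher. An intronic site at +15.4 kb, chosen after its values were seen, had a peak throughout, with 48 and 61 at D0 and 49 and 57 at D8. A site at +2.7 kb (chr10:80887093-80887286) was called in HY only, with 19 on both days.

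Nfix (ENSMUSG00000001911.9, chr8:87223775-87324243, minus strand, 100.5 kb) had fewer sites with a peak at D8 than at D0, 24 and 26 against 33 and 37. Over the genome the numbers were 36793 and 45143 at D8 against 68404 and 76806 at D0, a larger drop in proportion. A single site of 41 (2.44%, 0.0617 to 12.9), at +46.4 kb (chr8:87277518-87277700), was called at D8 only in both genotypes, with pileups of 8 and 9. At D0 only in both there were 6 sites (14.6%, 5.57 to 29.2), with pileups from 14 to 45. Both intervals include the shares of the genome, 5.99% and 24.6%. Peaks in all 4 libraries were found at 21 sites (51.2%, 35.1 to 67.1), a share whose interval lies above the 24.2% of the genome. Without sites nearest to another gene it was 8 of 18 (44.4%, 21.5 to 69.2), an interval that includes the genome's share. The window is rich in neighbours, and 23 of the 41 sites were nearest to another coding gene, among them Calr, Ier2 and Trmt1.

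Among sites with a peak in all 4 libraries, the lowest ratio of D8 to D0 was in an Nfix intron, at +57.7 kb (chr8:87266051-87268326), a site 2276 bp wide and nearest to the start of G430095P16Rik. Its pileup, singled out after the values were seen, was 70 and 71 at D0 and 15 and 17 at D8. Scaled for depth the ratios were 0.266 (0.141 to 0.469) and 0.343 (0.189 to 0.588). The local background fell with it, from 10.3 and 10.2 tags to 1.95 and 1.97, and the ratio of the deposited folds was 0.866 and 0.946. The site at +77.2 kb (chr8:87246618-87247422), also chosen after its values were seen, lies 59 bp from the start of G430095P16Rik. Its pileups were 44 and 42 at D0, with no peak in WT and 15 in HY at D8. At +5.8 kb (chr8:87318174-87318702), whose sequence holds 1 half-site, there were 18 and 21 at D0 and no peak at D8.

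**Figure D1:**
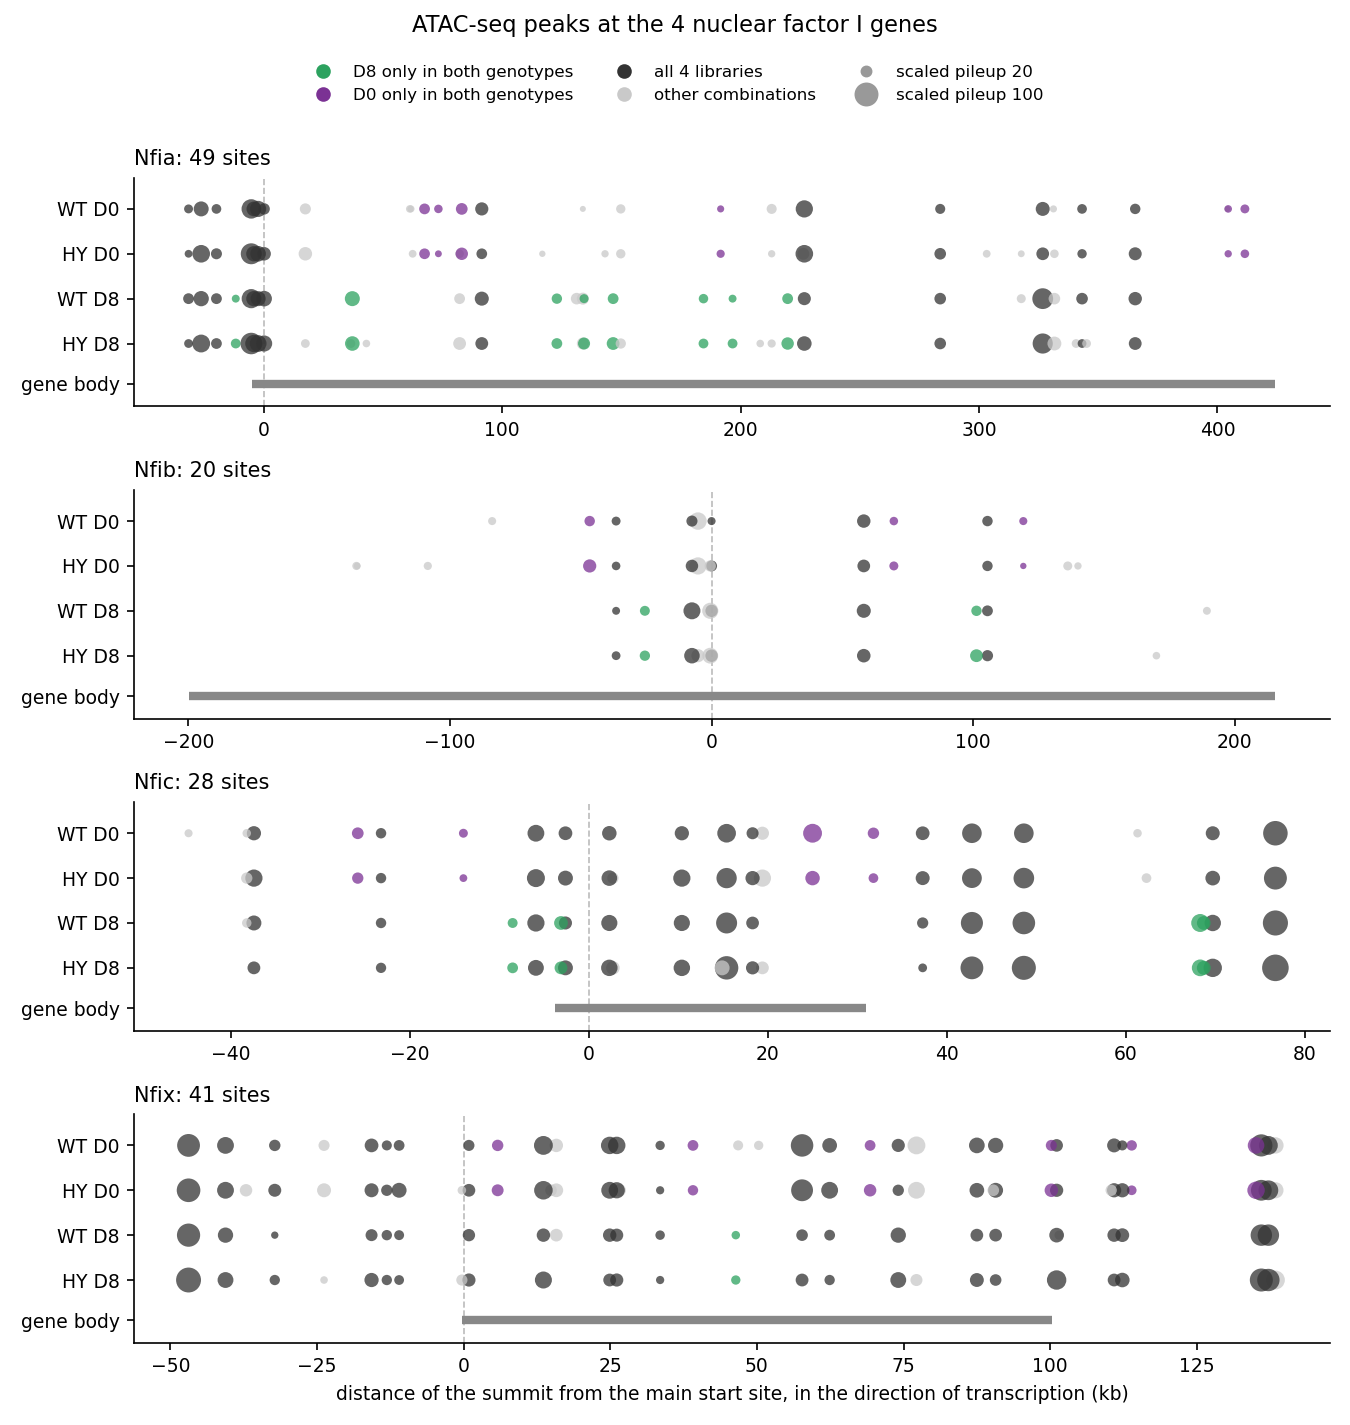
Peaks at the 4 genes in each library, plotted by the distance in kb of the summit from the main start of the gene in the direction of transcription. Each dot is a site with a peak in that library, its area grows with the scaled pileup, its colour gives the libraries it was called in, and the bar is the gene body; the 8 D8-only sites of Nfia are spread along the gene, while Nfix has 1.

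The annotated starts of the 4 genes fall into 17 groups when starts within 500 bp of the previous one are joined, and 9 of these had a peak summit within 1 kb in some library. Nfia has its main start, with 9 protein-coding transcripts, and another start at -4.9 kb. At the main start (chr4:97444340-97444732, exon) the pileup was 18 and 27 at D0 and 27 and 27 at D8, a scaled ratio of 1.86 (0.988 to 3.59) and 1.43 (0.808 to 2.54), so the rise is not larger than the counting error. The start at -4.9 kb had the highest pileups of all, 52 and 65 at D0 and 41 and 48 at D8, with ratios of 0.979 (0.634 to 1.5) and 1.06 (0.713 to 1.56). A start far inside the gene, at +133.4 kb, which belongs to a non-coding transcript, had 5 in WT and no peak in HY at D0 and 16 and 15 at D8. The peak at the main start also lies within 1 kb of the start of E130114P18Rik, and the signal there cannot be assigned to either gene.

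At the main start of Nfib the highest scaled pileup within 1 kb was 13.7 and 26.9 at D0 and 54.6 and 52.6 at D8. In WT these values come from different sites, the start itself at D0 and -0.5 kb at D8, and the rise at the start alone was not larger than the counting error. No peak lay within 1 kb of the main start of Nfic, used by 5 coding transcripts. Its nearest site, at +2.3 kb, had a peak in all 4 libraries, with 29 and 36 at D0 and 29 and 28 at D8. Within 1 kb of the Nfic start at -3.8 kb no peak was called at D0, and there were 21 and 17 at D8. The site at -2.6 kb, 1195 bp from that start, was open in all 4 libraries, with 26 and 33 at D0 and 19 and 23 at D8. The D8-only class at that start therefore rests on whether a separate peak was called. Near the Nfic start at +19.5 kb the pileup was 24 and 44 at D0, with no peak in WT and 17 in HY at D8.

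At the main start of Nfix the pileup was 17 and 24 at D0 and 17 and 18 at D8, with ratios of 1.24 (0.596 to 2.59) and 1.07 (0.549 to 2.06). A smaller site at -0.3 kb was called in HY only, with 11 at D0 and 13 at D8. The internal coding starts at +25.8 kb and +26.7 kb had lower values at D8. The site at +26.1 kb (chr8:87297772-87298120, exon) had 42 and 39 at D0 and 19 and 18 at D8, a ratio of 0.562 (0.308 to 0.987) and 0.661 (0.356 to 1.18). The site at +24.9 kb (chr8:87298321-87299327, intron) had 42 and 42, then 20 and 17, with ratios of 0.591 (0.329 to 1.03) and 0.58 (0.309 to 1.04). Of these 4 ratios only the first has an interval that excludes 1. On the deposited fold they were 0.906 and 1.01, and 0.946 and 0.927.

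**Figure D2:**
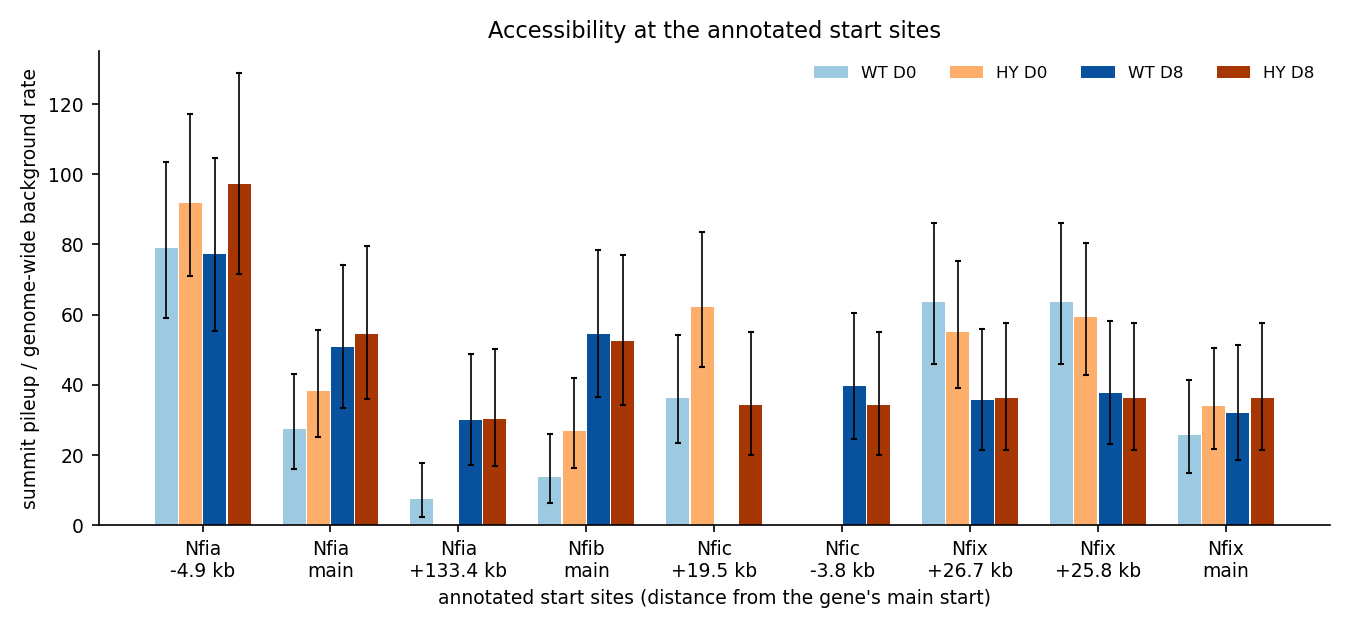
Scaled summit pileup (multiple of the genome-wide background rate) at the 9 groups of annotated starts with a peak within 1 kb, for each library; bars start at 0, error bars are 95% counting intervals, and a missing bar means no called peak. The bars of the main start of Nfib are 54.6 and 52.6 at D8 against 13.7 and 26.9 at D0 (in WT from different sites). The Nfic start at -3.8 kb has called peaks within 1 kb at D8 only, while the site at -2.6 kb, just outside that distance, was open in all 4 libraries.

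Over all 4 genes, 22 of the 113 sites with a peak in WT on either day were called at D8 only (19.5%, 12.6 to 28), where the share over the genome was 12.1%. In HY the count was 23 of 126 (18.3%, 11.9 to 26.1), where the genome gave 13.7%, a value inside the interval. D0-only calls were 36 of 113 in WT (31.9%, 23.4 to 41.3) against 52.7% over the genome, and 38 of 126 in HY (30.2%, 22.3 to 39) against 49.3%. D0-only sites were thus below the genome-wide share in both genotypes. The genome-wide background rate of the D8 libraries, used here in place of depth, was 0.806 (WT) and 0.75 (HY) times that of WT D0. Their peak lists were also shorter. With every list cut to the length of the shortest, the WT shares became 36.2% D8-only and 18.1% D0-only, beside 25.5% and 31.7% of all sites.

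For Nfia 12 of 39 sites in WT (30.8%, 17 to 47.6) and 14 of 44 in HY (31.8%, 18.6 to 47.6) were D8-only, and both intervals lie above the genome share. For Nfix 2 of 35 (5.71%, 0.7 to 19.2) and 1 of 38 (2.63%, 0.0666 to 13.8) were D8-only, below the genome share but with intervals that include it. The intervals of Nfib, with 4 of 14 and 3 of 18, and of Nfic, with 4 of 25 and 5 of 26, include it too. There are 1408 protein-coding genes with at least 20 sites chosen by the same rule, and their median share of sites called at D8 only in both genotypes was 4.76%. Nfia ranked above 90% of these genes, Nfic above 84.8%, Nfib above 73.5% and Nfix above 31.3%. Of the D8-only sites in WT, 68.2% were also D8-only in HY, which is 65.2% of those in HY, beside 63.8% and 49.5% over the genome. For D0-only sites the shares were 52.8% and 50%, beside 60.4% and 56.5%.

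**Figure D3:**
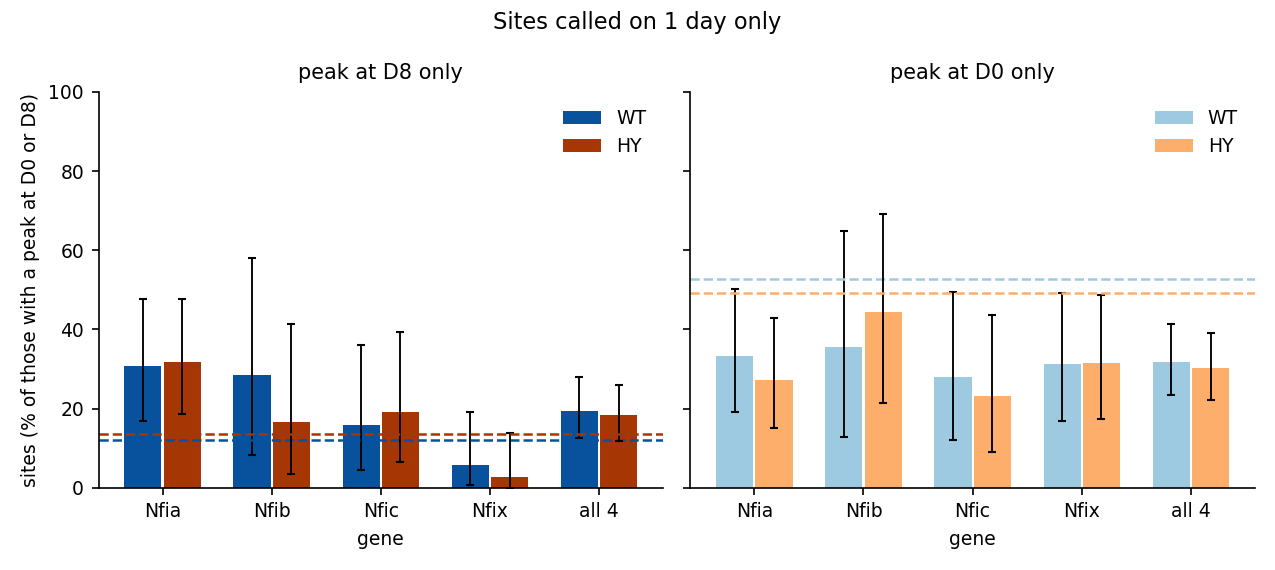
Share of sites (%) called at D8 only (left) and at D0 only (right) among the sites with a peak on either day, for each gene and for the 4 genes together, in WT and HY; bars start at 0, error bars are 95% exact binomial intervals, and dashed lines are the share over all sites of the genome. For D8 only, the intervals of Nfia lie above the dashed lines, and for D0 only those of the 4 genes together lie below them.

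Heights were compared at the sites with a peak on both days. In WT, 4 of 55 were more than 2-fold higher at D8, beside 4.78% of all sites, and 2 were more than 2-fold lower, beside 14.7%. In HY, 4 of 65 were more than 2-fold higher, beside 5.27%, and 6 were more than 2-fold lower, beside 17.2%. Some of the sites past 2-fold were not among those the naming rule picks and are named here after their values were seen. Upwards in WT they were Nfia +133.8 kb, Nfia +326.7 kb, the Nfib start and Nfib -7.5 kb, and in HY Nfia +82.1 kb, Nfia +326.7 kb, Nfia +331.6 kb and Nfix +101.1 kb. Downwards they were Nfix +57.7 kb and Nfix -32.2 kb in WT, and Nfix +57.7 kb, Nfix +62.4 kb, Nfix -11.0 kb, Nfix -23.8 kb, Nfia +17.4 kb and Nfic +37.3 kb in HY. Only Nfia +326.7 kb and Nfix +57.7 kb passed 2-fold in both genotypes, and neither did on the deposited fold. Of the 16 ratios past 2-fold, 6 were past it on the deposited fold, and 3 had an interval that includes 1.

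Summed over the sites open in all 4 libraries, the scaled pileup at D8 relative to D0 was 1.18 for Nfia in WT (1.01 to 1.39) and 1.16 in HY (0.993 to 1.35). For Nfib it was 1.47 (1.07 to 2.01) and 1.26 (0.924 to 1.72) over 5 sites, and for Nfic 1.15 (1.01 to 1.31) and 1.1 (0.966 to 1.24). For Nfix it was 0.821 (0.729 to 0.923) and 0.903 (0.807 to 1.01). Over the 24369 such sites in the genome the ratios were 0.887 and 0.947. The intervals of Nfia and Nfic lie above these values in both genotypes and that of Nfib in WT, while those of Nfib in HY and of Nfix include them. Without sites nearest to another gene the ratio of Nfic in HY was 1.02 (0.843 to 1.23), an interval that includes the genome's value. In the same setting Nfix had 0.677 (0.544 to 0.839) and 0.727 (0.586 to 0.898) over 8 sites, both below the genome. Without depth scaling the ratios of Nfia and Nfic were below 1 in both genotypes and that of Nfib in HY, as those of all sites were (0.714 and 0.661), and these genes remained above that level. On the deposited fold the median ratios were 1 and 0.827 at Nfia, 1.02 and 0.858 at Nfib and 0.916 and 0.942 at Nfic, beside 0.893 and 0.894 over all sites, so that Nfia and Nfib lay above the genome in WT and below it in HY. Nfix, with 0.961 and 1.01 over its 21 sites, lay above the genome in both genotypes on this measure. The intervals of the summed ratios treat each tag as independent and are narrow for that reason.

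**Figure D4:**
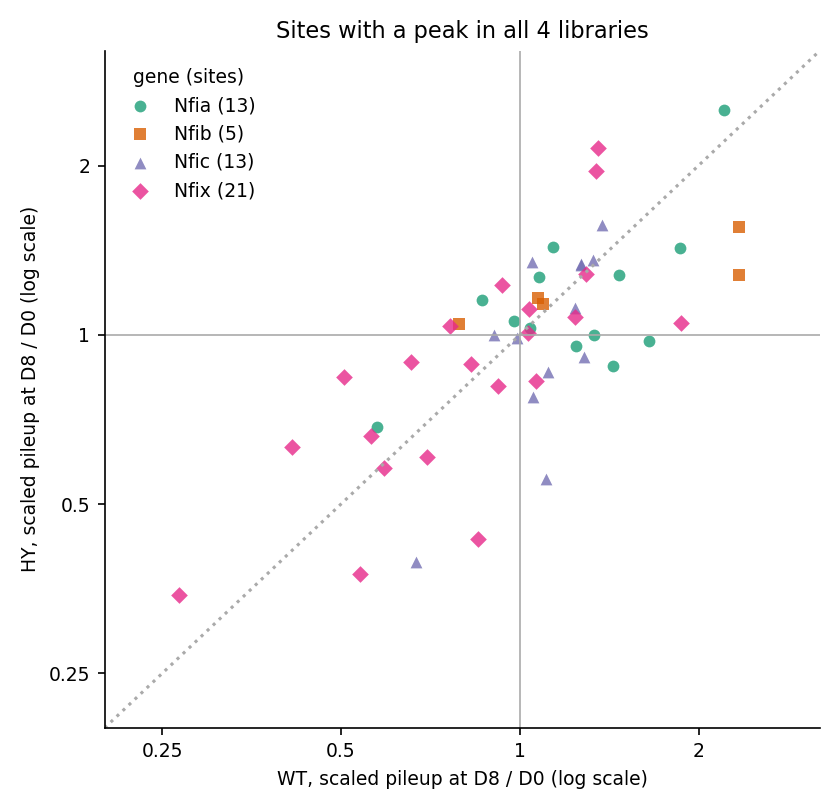
Scaled pileup at D8 divided by that at D0 in WT (x axis) and HY (y axis), both on log scales, for the 52 sites with a peak in all 4 libraries; each point is a site, grey lines mark a ratio of 1 and the dotted line marks equal ratios. Nfix has 13 of 21 sites below 1 in WT and 12 in HY, while 10 of the 13 Nfia sites are above 1 in WT and 9 in HY.

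The local background solved for the peaks also differed between days. It comes from the same deposited columns as the pileup, and how far a peak's own tags enter it is not known. At Nfix sites open in all 4 libraries the median local background, as a multiple of the genome-wide rate, was 5.9 and 5.7 at D0 and 3.54 and 3.59 at D8. It was lower at D8 at 18 of 21 sites in WT and 17 of 21 in HY, with median ratios of 0.663 and 0.74. The median ratio of the deposited folds there was 0.961 and 1.01, beside 0.893 and 0.894 over all sites open in the 4 libraries. At Nfia the median local background was 2.17 and 1.93 at D0 and 3.12 and 2.86 at D8, and at Nfic 5.78 and 6.45, then 6.93 and 7.8. Site by site it was lower at D8 at 6 and 2 of the 13 Nfia sites and at 3 and 7 of the 13 Nfic sites, with median ratios of 1.14 and 1.1 and of 1.08 and 0.991. Over all sites open in the 4 libraries it was 2.94 and 3.14 at D0 and 2.44 and 2.64 at D8. The scaled summit pileup of Nfix was lower at D8 at fewer sites than the local background was, 13 and 12 of 21.

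**Figure D5:**
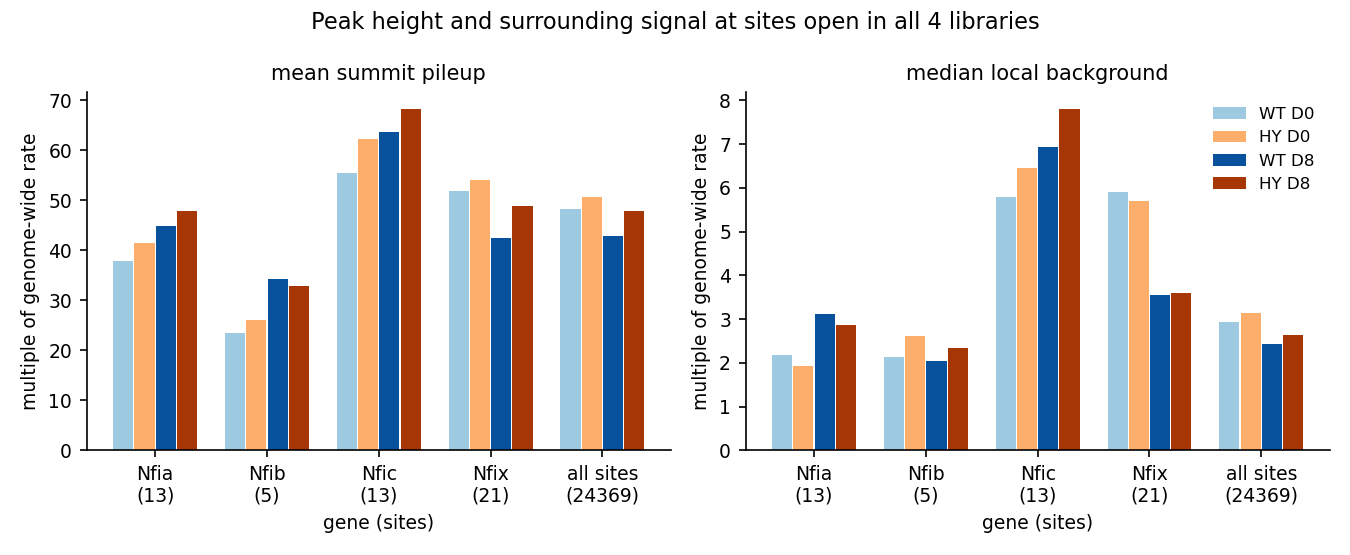
Mean scaled summit pileup (left) and median local background (right), both as multiples of the genome-wide background rate of the library, at sites open in all 4 libraries; bars start at 0, carry no error bars, and have the number of sites under each gene. The local background of Nfix is 5.9 and 5.7 at D0 and 3.54 and 3.59 at D8, and that of Nfia is higher at D8 than at D0.

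Between genotypes, the intervals of all shares over the 4 genes include the share of the genome. At D0, 22 of 113 sites had a peak in HY only (19.5%, 12.6 to 28), beside 21.7% of all sites, and 10 in WT only (8.85%, 4.33 to 15.7), beside 12.1%. At D8, 17 of 94 had a peak in HY only (18.1%, 10.9 to 27.4), beside 26.3%, and 6 in WT only (6.38%, 2.38 to 13.4), beside 9.53%. Of the sites with a peak in both genotypes, 0 of 81 at D0 and 0 of 71 at D8 differed more than 2-fold in scaled pileup, beside 3.64% and 2.19% of all sites. The exact interval of these counts allows a share of up to 4.45% at D0 and 5.06% at D8.

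Among the sites named for a peak in HY and none in WT were, at D8, Nfix +138.4 kb, near Ier2, with 37, Nfic +14.9 kb with 23 and Nfib -5.2 kb with 18. At D0 they were Nfix +26.6 kb with 23, Nfia +226.3 kb with 21, and Nfib -0.5 kb and Nfic +2.7 kb with 19 each. In the other direction Nfia +131.2 kb (chr4:97575464-97575613) had 15 in WT D8. Nfia +226.3 kb, Nfix +26.6 kb, Nfic +14.9 kb, Nfib -0.5 kb and Nfic +2.7 kb each lie within 1 kb of a site open in all 4 libraries, where the class rests on whether a separate peak was called. The 35 sites called in a single library had a median pileup of 9, against a median highest pileup of 33.5 at sites called in all 4, beside 8 and 35 over the genome.

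Motif content was read in the same 201 bp windows for all sites. A nuclear factor I half-site was found in 19 of the 138 windows (13.8%, 8.5 to 20.7), beside 16.2% of all sites, and in 10 of 49 at Nfia (20.4%), 3 of 20 at Nfib, 1 of 28 at Nfic and 5 of 41 at Nfix. The full palindrome was found in none, beside 0.0398% of all sites. By class, TTGGCA was in 4 of 15 windows called at D8 only in both genotypes (26.7%, 7.79 to 55.1) and in 1 of 19 called at D0 only (5.26%, 0.133 to 26). Over the genome the same classes had 27.5% and 15.7%, both inside these intervals. AP-1, the motif of the FOS and JUN proteins, was in 15 of the 138 windows (10.9%, 6.21 to 17.3), below the 22% of all sites, and in 2 of the 52 open in all 4 libraries (3.85%, 0.469 to 13.2) against 15.6%. The C/EBP motif was in 2 of 15 and 1 of 19 (genome 27% and 8.82%), and AP-1 in 1 of 15 and 3 of 19 (genome 7.06% and 31.9%). EBF matched 2 of the 138 windows, CTCF 3 and PPARG:RXR none, where 1.36%, 3.73% and 0.103% of all sites matched. The median GC content was 48.8% at Nfia, 46.3% at Nfib, 59.5% at Nfic and 58.2% at Nfix, beside 50.2% over all sites, and its part in these shares was not tested.

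Genes chosen as possible partners of nuclear factor I proteins in fat cells were counted by the same rule, and the partnership itself was not tested. There were 14 such genes (Pparg, Rxra, Cebpa, Cebpb, Cebpd, Ebf1, Ebf2, Ebf3, Prdm16, Zfp423, Zfp516, Ehmt1, Tle3 and Nr3c1). Their 311 sites included 50 called at D8 only in both genotypes (16.1%) and 55 called at D0 only (17.7%), beside 10.9% and 13.8% for the nuclear factor I genes and 5.99% and 24.6% of all sites. At the Pparg promoter the highest pileup was 17 and 12 at D0 and 37 and 39 at D8. Promoter peaks were present at all 14 genes in both D0 libraries and at 13 in both D8 libraries. Ebf2, a marker of brown and beige precursors, had 17 and 15 at D0 and no promoter peak at D8, alone among the listed genes.

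Of 8 genes reported as NFIA targets (Ucp1, Cidea, Ppargc1a, Adipoq, Fabp4, Lpl, Plin1 and Cidec), promoter peaks were present at 1 in WT D0 and 3 in HY D0 and at 7 in each D8 library. They had 32 sites called at D8 only (31.7% of theirs) and 11 called at D0 only (10.9%), beside 5.99% and 24.6% of all sites. All 8 are also on the adipocyte or beige marker lists used below, and the adipocyte markers had 28.2% and 10.3%. Cidea had 0 sites called at D8 only and 3 at D0 only, while Fabp4 had 8 and 0. The Fabp4 promoter, of a fatty acid carrier of mature fat cells, had no peak at D0 and 46 at D8 in both genotypes. Ucp1, the uncoupling protein of thermogenic fat, had no peak within 1 kb of its start in any library.

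The genes with the nearest pattern, by Euclidean distance between the shares of sites called in each of the 4 libraries, were Cdkn1a (0.0341), Mbnl1 and Pex14 for Nfia. For Nfib they were Tcte2 (0.0385), Baiap2 and Stat3, for Nfic Smad6, Nisch and Ppp1ca (0.0558 each), and for Nfix Tnxb (0.0223), Ctcf and Cirbp.

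Marker genes of cell types were read at their promoters. Peaks were present at 4 of 8 adipocyte markers in both D0 libraries and at 8 in both D8 libraries, and at 7 and 6 of 8 preadipocyte or fibroblast markers at D0 and 3 in each D8 library. Beige markers had 1 of 5 in WT D0 and 3 in each of the other libraries. Macrophage and muscle markers had none in any library. Endothelial markers had 3 and 2 of 4 at D0 and 0 and 1 at D8, neuronal markers 2 and 3 of 3 at D0 and 1 and 1 at D8, and their part in the results was not tested. At the limit of the window, the Nfic +76.7 kb site lay 41 bp inside, and a site with 20 and 40 at D0 and 26 and 21 at D8 lay 690 bp outside the Nfix window.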

How the data were processed

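ATAC-seq peaks of 4 libraries (WT and HY, D0 and D8) were analysed as deposited, 1 list per library. Per the labels and the study's methods the authors aligned reads to mm9 with Bowtie2 and removed duplicates with Picard. SAMtools and deepTools are also in the submitters' processing notes, and MACS3 is named in the study's methods for ChIP-seq, with the same procedure for ATAC-seq. Pileups rest on reading the deposited columns as MACS values. Versions, the calling threshold and any shift of read ends for Tn5 are not given in the sources used here. The deposited fold (a ratio over the local background), −log10 p and −log10 q were used, and the deposited score was not.

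Fold and −log10 p were solved for a whole-number summit pileup and a local background, within 0.002 for 100% of peaks and with 1 solution for at least 99.86%. The lowest background of a list was taken as its genome-wide rate: 0.659 and 0.708 for D0 (WT, HY) and 0.531 and 0.494 for D8. The absolute number of reads is unknown. The lists held 71523 and 77994 peaks at D0 and 41228 and 48964 at D8, with median pileups of 13 to 15. Genes and sequences came from NCBIM37 (mm9) with GENCODE vM1, whose chromosome ends no peak passed. Peaks outside the assembled chromosomes were left out of sites.

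Shares, ratios and exact intervals were computed with Python 3.11.15, pandas 2.3.3 and SciPy 1.17.1, tested on simulated data. With 1 library per group no test was made. Sites named were those within 1 kb of a start, up to 3 per gene and class by their weakest library, and up to 2 per gene called in 1 genotype only. Others are marked as chosen after their values were seen. The members and gene lists were chosen with earlier results of these data known. Alternatives changed the joining of peaks, the window, neighbours, threshold, list length, annotation and scaling.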

Additional observations from a re-analysis of the deposited data

Results flagged for a closer look

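The direction from D0 to D8 was opposite in WT and HY for 4 of the named results, each from single libraries, and none of these differences between genotypes was tested. The number of Nfia sites with a peak changed by -1 in WT and by 2 in HY. The scaled pileup ratio of D8 to D0, WT before HY, was 0.79 (0.26 to 2.23) and 1.04 (0.364 to 2.84) at Nfib -36.5 kb, 0.979 (0.634 to 1.5) and 1.06 (0.713 to 1.56) at Nfia -5.3 kb, and 0.931 (0.635 to 1.36) and 1.23 (0.842 to 1.79) at Nfix +136.0 kb, near Ier2. All 6 intervals include 1, and both genotypes moved in 1 direction at all 3 sites without depth scaling and after division by the median of sites open in all 4 libraries, and at 2 of the 3 on the deposited fold. Of the 52 sites open in all 4 libraries, 13 (25%) had opposite directions, beside 22.9% of all such sites in the genome.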

How the results depend on the processing

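In each of the 9 alternatives, the share of D8-only sites at the 4 genes stayed above the genome share and that of D0-only sites below it, in both genotypes. With equal list lengths the WT shares were 36.2% D8-only and 18.1% D0-only and the HY shares 32.6% and 15.8%, beside 25.5% and 31.7% of all sites in WT and 25.5% and 30.2% in HY. With summits joined within 150 bp the HY D8-only share was 26.4%, beside 19.1%. Other choices left it close to the genome share. A window of 100 kb gave 14.9% in HY, beside 13.7%, and 16.4% in WT, beside 12.1%. Under a -log10 q minimum of 5 the HY D8-only share was 14.7%, beside 11.8%. Under a rule of 50% coverage peak by peak, D0-only shares were 46.2% in WT and 43.2% in HY, and HY-only shares 29.1% at D0 and 27.6% at D8, beside 63.7%, 61.4%, 29.2% and 34.3% of all sites. The HY-only share at D0 was below the genome share in 6 of 9 alternatives.

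Without depth scaling the summed D8 to D0 ratio was 0.954 and 0.808 for Nfia in WT and HY, 0.88 for Nfib in HY, 0.924 and 0.766 for Nfic, and 0.661 and 0.631 for Nfix, beside 0.714 and 0.661 over all sites. This choice moves every site by 1 factor and leaves the order of genes and genome as it was. For Nfix it was 0.621 and 0.702 with a window of 5 kb and 0.677 and 0.727 without sites nearest to another gene. Of 9 ratios past 2-fold at named sites, 3 stayed past it on the deposited fold, 4 without depth scaling and 9 after division by the median of sites open in all 4 libraries. In the same order 0, 8 and 2 other ratios passed it newly. The D8-only sites in both genotypes numbered 7 to 12 for Nfia, 2 to 5 for Nfic and 0 to 3 for Nfix, with 0 under a -log10 q minimum of 5. The cause of the other shifts was not tested. No paired analysis was made, since each group has 1 library, and D8 is set against D0 within each genotype throughout. Pileups were low, so counting error limits every ratio at a single site.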
